A study of Mus musculus with 5 samples.

Results

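The genes described here encode the IkB proteins, the canonical NF-kB subunits and the A20 feedback proteins: Nfkbia, Nfkbib, Nfkbie, Nfkbiz, Bcl3, Nfkb1, Rela, Rel, Tnfaip3 and Tnip1. Members were all probe sets whose single gene symbol in the platform annotation is 1 of these 10 genes. The rule found 18 probe sets of 9 genes, among 45101 probe sets and 18193 singly named genes on the array, and Nfkb1 was not analysed here because no probe set carried it as its single symbol. RNA was profiled on 5 one-colour arrays of cultured cells with a C57BL/6J background, labelled as aortic endothelial cells. The titles give 3 control and 2 TNF-LTBR arrays, all at 24 h. TNF is an inflammatory cytokine and LTBR is the lymphotoxin beta receptor, but the agonists and doses of the TNF-LTBR group are not stated in the labels. All 5 samples share a treatment text that mentions PBS alone, so the TNF-LTBR identity rests on the titles. The labels do not tie the arrays to separate cultures or animals, and the p-values therefore reflect the spread among these arrays alone, which may be technical.

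In resting cells, IkB proteins hold NF-kB dimers such as the one of the Rela and Nfkb1 products in the cytoplasm. TNF receptor signalling activates the IkB kinase complex, which marks the classical IkB proteins for degradation and frees NF-kB to enter the nucleus. Several inhibitors are themselves NF-kB target genes: IkB-alpha (Nfkbia), IkB-epsilon (Nfkbie) and the ubiquitin-editing enzyme A20 (Tnfaip3) are known for negative feedback, with ABIN-1 (Tnip1) as a partner that binds A20. IkB-zeta (Nfkbiz) and Bcl-3 (Bcl3) act in the nucleus as cofactors of NF-kB.

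These feedback genes are known for kB sites near their starts, so the promoter windows of the genes that differed most are printed beside that of Rela, whose transcript was nearly level. Each window runs from 250 bases before to 50 after a RefSeq gene start (GRCm38.p6) and is written 5′ to 3′ on the gene's strand, with capitals for every match to the kB decamer. The decamer was searched on both strands as GGG, a purine, 2 bases of any kind, 2 pyrimidines and CC, with overlapping matches kept. Nfkbia lies at chr12:55492598-55492897 on the minus strand, Nfkbie at chr17:45555450-45555749 on the plus strand, Tnfaip3 at chr10:19015361-19015660 on the minus strand, Tnip1 at chr11:54962891-54963190 on the minus strand, and Rela at chr19:5637291-5637590 on the plus strand.
Nfkbia: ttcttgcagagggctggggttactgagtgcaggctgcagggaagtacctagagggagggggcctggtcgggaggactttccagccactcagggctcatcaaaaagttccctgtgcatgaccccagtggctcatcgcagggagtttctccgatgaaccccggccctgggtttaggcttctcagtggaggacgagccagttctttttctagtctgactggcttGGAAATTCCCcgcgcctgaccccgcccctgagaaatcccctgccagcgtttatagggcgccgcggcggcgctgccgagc
Nfkbie: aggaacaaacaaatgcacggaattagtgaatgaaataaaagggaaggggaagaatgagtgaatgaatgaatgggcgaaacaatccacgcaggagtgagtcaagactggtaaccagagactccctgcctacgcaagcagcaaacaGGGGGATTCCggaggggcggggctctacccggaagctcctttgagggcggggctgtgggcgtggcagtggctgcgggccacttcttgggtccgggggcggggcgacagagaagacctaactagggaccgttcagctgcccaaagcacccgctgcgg
Tnfaip3: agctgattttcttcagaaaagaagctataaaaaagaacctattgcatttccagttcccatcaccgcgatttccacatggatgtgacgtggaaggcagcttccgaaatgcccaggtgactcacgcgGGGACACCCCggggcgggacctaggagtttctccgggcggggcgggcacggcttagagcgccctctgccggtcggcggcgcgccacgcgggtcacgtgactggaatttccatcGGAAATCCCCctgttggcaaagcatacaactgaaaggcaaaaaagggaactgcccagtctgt
Tnip1: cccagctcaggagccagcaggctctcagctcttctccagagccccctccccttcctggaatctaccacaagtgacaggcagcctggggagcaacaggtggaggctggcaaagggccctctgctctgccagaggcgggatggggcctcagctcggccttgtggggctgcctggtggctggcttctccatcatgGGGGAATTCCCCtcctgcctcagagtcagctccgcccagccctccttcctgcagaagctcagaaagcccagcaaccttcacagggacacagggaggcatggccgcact
Rela: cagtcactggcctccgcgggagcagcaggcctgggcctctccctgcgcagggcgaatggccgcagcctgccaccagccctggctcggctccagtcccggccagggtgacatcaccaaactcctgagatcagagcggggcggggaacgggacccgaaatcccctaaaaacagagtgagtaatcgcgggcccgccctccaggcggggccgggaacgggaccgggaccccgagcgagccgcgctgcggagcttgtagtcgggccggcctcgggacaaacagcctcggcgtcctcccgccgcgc

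Windows were found for 8 of the members, with none for Nfkbiz or Nfkb1. Of these 8 genes, 6 held a match, against 9.55% of the 27025 genes with a window of that length. The match GGAAATTCCC began 29 bases upstream of the Nfkbia start, and GGGGGATTCC began 106 bases upstream of the Nfkbie start. In the Tnfaip3 window, GGGACACCCC began 125 bases and GGAAATCCCC 12 bases upstream; a further Tnfaip3 window in the table held none. The Tnip1 window held overlapping matches within GGGGAATTCCCC, beginning 58 bases upstream. Matches were also present in the Rel window (GGGAAATCCCC, from 92 bases upstream) and in the Bcl3 window (GGGAAGTCCC, just after the start), and the Rela and Nfkbib windows held none. A match describes letters in the window and is not evidence of binding.

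The labels name endothelial cells, whereas the series title concerns smooth muscle cells. Of 10 endothelial markers, 3 lay above the array median on all 5 arrays (Kdr, Eng and Egfl7) and 2 below it on all arrays (Vwf and Tie1). Eng lay between 1550.2 and 1858.3 in intensity, and Vwf, the von Willebrand factor gene, between 2.3 and 7.2. All 8 fibroblast and pericyte markers lay above the array median on every array, Col3a1 with intensities of 13229.2 or more. Of 8 smooth muscle markers, 3 lay above the median on every array and 3 below it on every array; Acta2 ranged from 2066.4 to 8169.4 and Myh11 from 4.6 to 41.3. The samples are therefore named by their titles below. Array medians ranged from 109.9 to 120.7. Over 27006 bright probe sets outside the members, TNF-LTBR 1 was nearest to control 2 (root mean square log2 difference 0.42) and TNF-LTBR 2 to control 3 (0.40), while the TNF-LTBR arrays differed from each other by 0.72. Each TNF-LTBR array thus resembled a control more than it resembled its own partner.

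**Figure D1:**
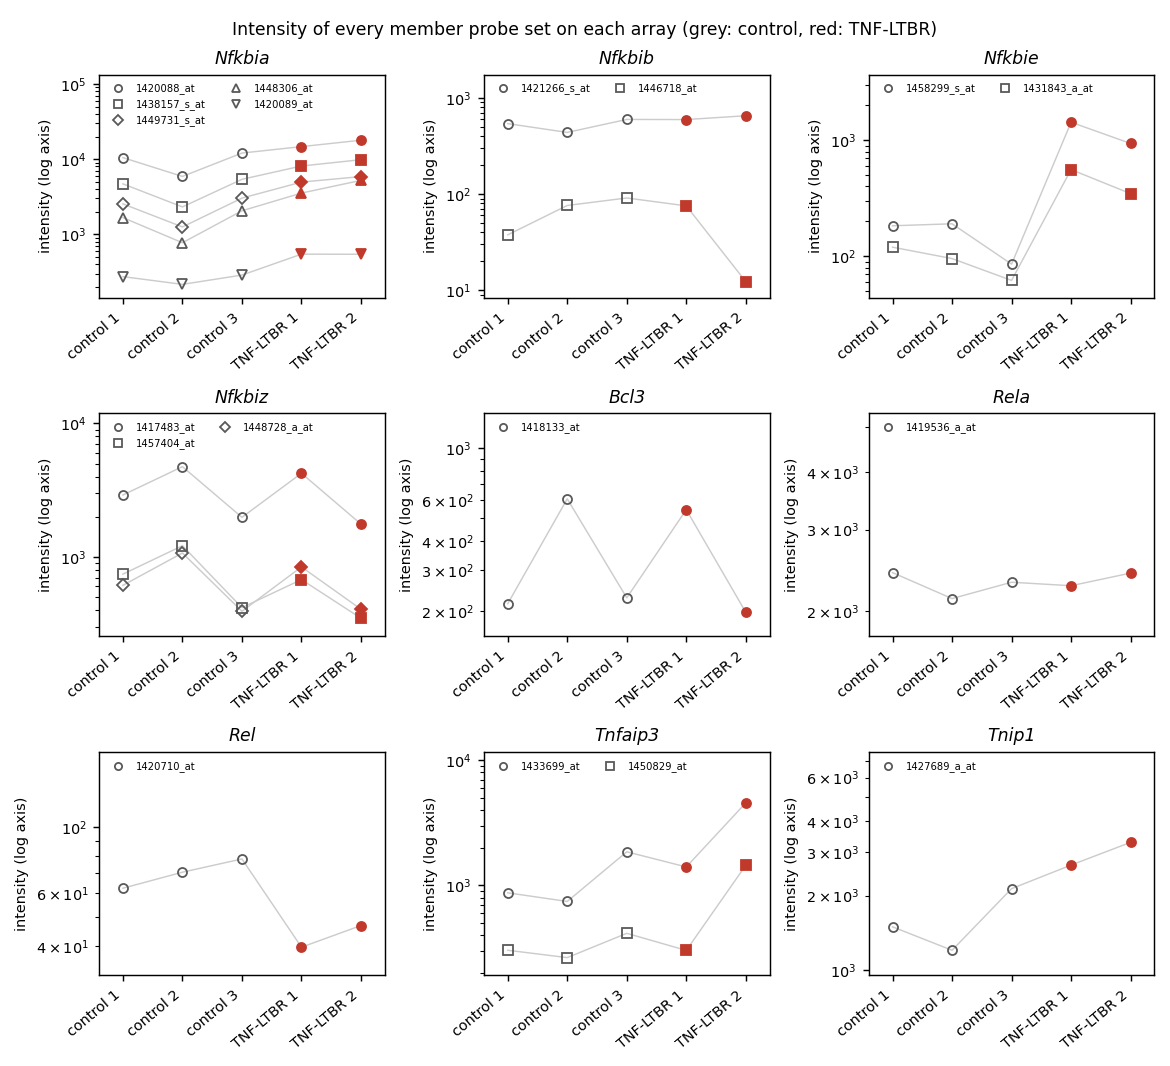
Intensity (log axis) of each of the 18 member probe sets on the 3 control (grey, open) and 2 TNF-LTBR (red, filled) arrays, with 1 panel per gene and 1 symbol per probe set; grey lines join the values of 1 probe set and mark no order. Within each probe set of Nfkbia, Nfkbie and Tnip1 the red points lie above all grey points. Within each group, by contrast, Nfkbiz and Bcl3 probe sets are highest on control 2 and TNF-LTBR 1.

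Of the 18 member probe sets, 8 were higher on both TNF-LTBR arrays than on all control arrays: all 5 of Nfkbia, both of Nfkbie and the 1 of Tnip1. Across all 45037 probe sets tested, 8.81% showed this pattern, and 7.8% of the 60% brightest. The single Rel probe set was lower on both TNF-LTBR arrays than on all controls, a pattern shown by 6.85% of all probe sets and 6.28% of the brightest 60%. In the remaining 9 the groups overlapped. Of the member probe sets, 6 were above all controls and at least 2-fold higher, against 0.755% of all probe sets. They were both of Nfkbie and all of Nfkbia except 1420088_at. The median difference of the 18 probe sets was 0.87 on the log2(intensity + 16) scale, beside 0.01 for all probe sets. Because 5 of the 18 are Nfkbia, the median depends on how probe sets are counted. It was 0.54 with the brightest probe set per gene. That setting also kept only the 60% brightest genes, which left out Rel, so 0.54 does not cover every measured gene. The median was 0.46 without probe sets whose suffix (such as _s_at or _a_at) was taken to mark shared sequence, and 0.59 without TNF-LTBR 2. Differences and folds below are on the log2(intensity + 16) scale.

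No member passed limma's test after Benjamini-Hochberg adjustment over all probe sets (adjusted p 0.9999 for every member), nor did any other probe set (0%). At an unadjusted p under 0.05, limma called 8 member probe sets higher and 0 lower, beside 1.65% higher and 1.39% lower over all probe sets. The fit had 3 residual degrees of freedom. Words such as higher and lower therefore describe the arrays measured.

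**Figure D2:**
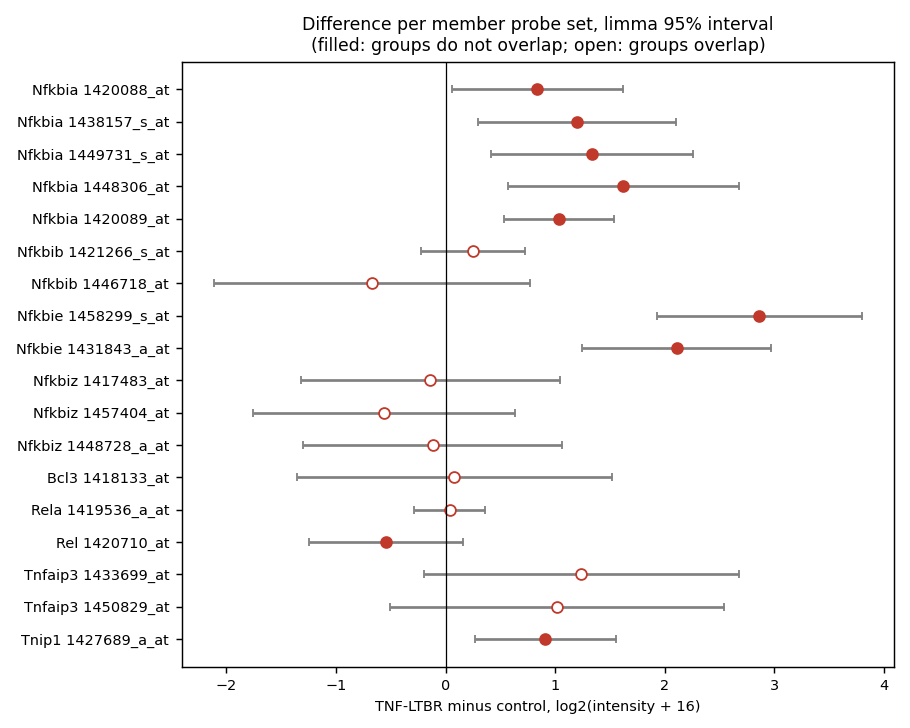
Difference between TNF-LTBR and control means for each member probe set, in log2(intensity + 16), with limma's 95% interval before adjustment as bars; filled points mark groups that do not overlap and open points groups that overlap. Nfkbie lies farthest to the right, at 2.86 and 2.11, and the intervals of Rela, Nfkbib, Nfkbiz, Bcl3, Rel and Tnfaip3 include 0.

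Among the classical inhibitors, Nfkbie differed most. IkB-epsilon, its product, retains Rela and Rel dimers and is resynthesised after NF-kB activation. Probe set 1458299_s_at read 183.7, 191 and 85.9 on the control arrays, in replicate order here and below, against 1429.4 and 938.4 on the TNF-LTBR arrays. Probe set 1431843_a_at read 120.2, 95.9 and 62.2 in control, against 559.6 and 347.3 in TNF-LTBR. On both, TNF-LTBR 1 was the highest array and control 3 the lowest, and the groups were far apart: the lowest TNF-LTBR intensity was 4.91 and 2.89 times the highest control.

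The first Nfkbie probe set lay at 7.34 ± 0.58 (SD, n = 3) in control and 10.20 ± 0.42 (SD, n = 2) in TNF-LTBR, a 7.27-fold difference (log2 2.86, SE 0.38, limma p 0.000292 before adjustment). The second was 4.31-fold higher (log2 2.11, SE 0.35, limma p 0.000975). By size of difference they ranked 6 and 17 among the 45037 probe sets. Leaving out any 1 array gave log2 differences between 2.53 and 3.16 for the first and between 1.78 and 2.44 for the second. Both carry suffixes taken here as marking sequence shared between transcripts, so no Nfkbie value comes from a probe set without one.

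Nfkbia, which encodes IkB-alpha, the inhibitor that is degraded and resynthesised most rapidly, was higher on TNF-LTBR arrays on every probe set. The brightest, 1420088_at, read 10474.5, 5885.4 and 12049 in control, against 14671.3 and 17861.9 in TNF-LTBR. Probe set 1448306_at read 1665.5, 771.5 and 2053.8 in control, against 3534.7 and 5215.6 in TNF-LTBR. On these probe sets control 2 was the lowest array and TNF-LTBR 2 the highest, with no overlap.

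The other Nfkbia probe sets kept that separation. Probe set 1438157_s_at read 4686.3, 2312.3 and 5386.7 in control against 8100.6 and 9831.1, and 1449731_s_at read 2537.6, 1252.1 and 3028.3 against 4950.4 and 5860.2. The dimmest, 1420089_at, read 273.2, 215.4 and 286.4 in control, against 543.8 and 542 in TNF-LTBR, where its values nearly coincided. Control 2 was the lowest array on each of the 5 probe sets.

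Folds for Nfkbia ranged from 1.79 on 1420088_at to 3.08 on 1448306_at. The former lay at 13.15 ± 0.55 (SD, n = 3) and 13.98 ± 0.20 (SD, n = 2), a log2 difference of 0.84 (SE 0.32). The latter differed by 1.62 (SE 0.43). The most even probe set, 1420089_at, differed by 1.04 (SE 0.21, limma p 0.00232 before adjustment, 0.9999 adjusted). Without control 2 the difference of 1420088_at was 0.53 and that of 1448306_at was 1.21, and no left-out array turned the direction of any Nfkbia probe set. The 5 probe sets share 1 gene and the same 5 RNA samples, so their agreement adds no replicates.

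Nfkbib encodes IkB-beta, an inhibitor known to be less responsive to NF-kB at the transcript level. Its probe set 1421266_s_at read 541.2, 438.3 and 598.2 in control, against 596.4 and 653.4 in TNF-LTBR, so TNF-LTBR 1 fell just below control 3. The fold was 1.19, with a 95% interval of 0.856 to 1.66. Probe set 1446718_at was below the array median on all arrays, with 37.7, 76.2 and 91.2 in control, against 75.5 and 12.3 in TNF-LTBR. Its difference of -0.67 (SE 0.59) was 0.18 without TNF-LTBR 2 and thus rested on that array.

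The nuclear IkB proteins showed another pattern across arrays. Probe set 1417483_at of Nfkbiz read 2908.4, 4743.8 and 1978 in control, against 4233.1 and 1759.4 in TNF-LTBR. Bcl3 (1418133_at) read 214.9, 606.2 and 227.8 in control, against 544.8 and 197.5 in TNF-LTBR. Both genes were highest on control 2 and TNF-LTBR 1, so the groups overlapped throughout.

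Control 2 was the highest array on the other Nfkbiz probe sets too. Probe set 1448728_a_at read 611.7, 1068.9 and 390.7 in control, against 840.6 and 404.8 in TNF-LTBR. Probe set 1457404_at read 742.2, 1211.9 and 416.2 in control, against 675.7 and 346.5 in TNF-LTBR, where TNF-LTBR 1 stayed below control 1. Log2 differences were -0.14, -0.12 and -0.56 for 1417483_at, 1448728_a_at and 1457404_at, with SEs of 0.48, 0.48 and 0.49, and 0.08 (SE 0.59) for Bcl3. The 95% interval of the fold was 0.400 to 2.06 for 1417483_at and 0.391 to 2.86 for Bcl3, too wide to call either level. Within single groups the spread was larger than these differences: the highest control exceeded the lowest 2.40-fold for 1417483_at and 2.82-fold for Bcl3.

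Some markers of every cell type list were likewise highest among controls on control 2 and higher on TNF-LTBR 1 than on TNF-LTBR 2. They included 3 of 10 endothelial, 3 of 8 smooth muscle and 2 of 8 fibroblast and pericyte markers. The summed intensity of 8 macrophage and leukocyte markers was 3015.8, 6040 and 1621.9 in control, against 6589.5 and 1408.5 in TNF-LTBR, with 3 of the 8 below the array median on every array and none at 0. Of these 8 genes, 5 were highest among controls on control 2 and higher on TNF-LTBR 1 than on TNF-LTBR 2, Lyz2 among them with intensities of 66.5 to 3933.6. The 4 lymphatic endothelial markers did not move as a list. Pdpn, which made up most of their sum, read 1198.8, 7962.8 and 220.7 in control, against 11151.8 and 328.4 in TNF-LTBR, and Flt4 shared the order. The defining markers Prox1 and Lyve1 were below the array median on all arrays and did not. The part of these markers' cell types in the Nfkbiz and Bcl3 values was not tested. In a whole-culture RNA sample, fewer cells of a type and less RNA per cell cannot be told apart.

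Of the canonical subunits, Rela was nearly constant. Rela encodes p65, the transactivating subunit, and its probe set 1419536_a_at read 2421.3, 2127 and 2307.9 in control, against 2267.9 and 2415.8 in TNF-LTBR. The means were 11.17 ± 0.09 (SD, n = 3) and 11.20 ± 0.06 (SD, n = 2), a 1.03-fold difference with a 95% interval of 0.817 to 1.29. All TNF-LTBR values lay within the control range. This was the narrowest interval among the members.

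Rel, which encodes c-Rel, was dim. Its probe set 1420710_at read 62.4, 70.6 and 78.2 in control, against 39.6 and 46.8 in TNF-LTBR, below the array median on all 5 arrays. Both TNF-LTBR values were under every control, with a log2 difference of -0.54 (SE 0.29, limma p 0.106 before adjustment). Added to such intensities, the pseudocount of 16 weighs on the fold. With pseudocounts of 1 and 64 the difference was -0.69 and -0.33.

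Among the A20 feedback genes, Tnfaip3 depended on 1 array. A20, its product, edits ubiquitin chains on signalling intermediates of TNF receptor 1 and so limits IkB kinase activity. Probe set 1433699_at read 872.7, 744.4 and 1855.9 in control, against 1404.3 and 4564.7 in TNF-LTBR. Probe set 1450829_at read 303.4, 265 and 414.3 in control, against 302.6 and 1448.7 in TNF-LTBR. TNF-LTBR 2 stood far above all other arrays, and TNF-LTBR 1 was below control 3 on both probe sets.

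The Tnfaip3 folds were 2.36 (log2 1.24, SE 0.59) and 2.02 (log2 1.02, SE 0.62). Without TNF-LTBR 2 the log2 differences were 0.39 and -0.09, and without TNF-LTBR 1 they were 2.08 and 2.12. Summed intensities of the 8 fibroblast and pericyte markers were 33025.1, 51758.9 and 66411.2 in control, against 54392.8 and 73557.7 in TNF-LTBR, with all 8 above the array median on every array. Of these, 4 were highest among controls on control 3 and higher on TNF-LTBR 2 than on TNF-LTBR 1, as Tnfaip3 was: Pdgfrb, Col1a1, Dcn and Lum. Lum read 1145.4, 818 and 12967.3 in control, against 1103.8 and 12933.2 in TNF-LTBR. Pdgfra and Rgs5 went another way and were highest on TNF-LTBR 1, at 9001.8 and 13874.5. The summed smooth muscle markers ran low where Tnfaip3 ran high, with 14633.7, 11969.5 and 4211.1 in control, against 6805.2 and 4036.2 in TNF-LTBR. Of these 8, 4 were lowest among controls on control 3 and lower on TNF-LTBR 2 than on TNF-LTBR 1. That order was not particular to smooth muscle. It held for 7 of 8 macrophage and leukocyte and 7 of 10 endothelial markers. It also held for 2 of 4 lymphatic endothelial and 1 of 8 fibroblast and pericyte markers. The part of any of these lists' cell types in the Tnfaip3 values was not tested.

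Tnip1 encodes ABIN-1, which binds ubiquitin and A20. Probe set 1427689_a_at read 1496.2, 1202.6 and 2134.6 in control, against 2658.6 and 3285.2 in TNF-LTBR. Control 3 came closest to the TNF-LTBR arrays, and the lowest TNF-LTBR value was 1.25 times the highest control. The means were 10.63 ± 0.41 (SD, n = 3) and 11.54 ± 0.21 (SD, n = 2), a 1.88-fold difference (log2 0.91, SE 0.26, limma p 0.0133 before adjustment). Leaving out single arrays gave 0.72 to 1.13.

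Each TNF-LTBR array was then set beside the control array nearest to it in the rest of the profile, TNF-LTBR 1 beside control 2 and TNF-LTBR 2 beside control 3. These pairs were defined from the data after they were seen, are not given by the labels and carry no test. On the linear intensity scale, the Nfkbiz probe set 1417483_at was at 0.892 and 0.889 times the nearest control, and Bcl3 at 0.899 and 0.867 times. For both, the spread within each group was much larger than the difference between neighbours. The other Nfkbiz probe sets were less even, with 0.558 and 0.833 times for 1457404_at and 0.786 and 1.04 times for 1448728_a_at. Rela stood at 1.07 and 1.05 times, and Nfkbib at 1.36 and 1.09 times on 1421266_s_at and 0.991 and 0.135 times on the dim 1446718_at.

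Nfkbie, Nfkbia, Tnip1 and Rel, whose groups did not overlap, were set beside their neighbours likewise, as was Tnfaip3, whose groups overlapped. Nfkbie 1458299_s_at was at 7.48 and 10.9 times the nearest control, and 1431843_a_at at 5.84 and 5.58 times. Nfkbia 1448306_at was at 4.58 and 2.54 times, 1420088_at at 2.49 and 1.48 times, the other Nfkbia probe sets at 2.52 to 3.95 and 1.83 to 1.94 times, and Tnip1 at 2.21 and 1.54 times. Tnfaip3 1433699_at was at 1.89 and 2.46 times, whereas 1450829_at was at 1.14 and 3.50 times. Rel was at 0.561 and 0.598 times. For orientation, the central 90% of the other bright probe sets spanned log2 differences of -0.64 to 0.66 in the first pair and -0.60 to 0.59 in the second. The brightest Nfkbia probe set, 1420088_at, was inside that range in the second pair, at 0.57, as was Rel in both. Tnfaip3 1450829_at was inside it in the first pair, at 0.18.

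**Figure D3:**
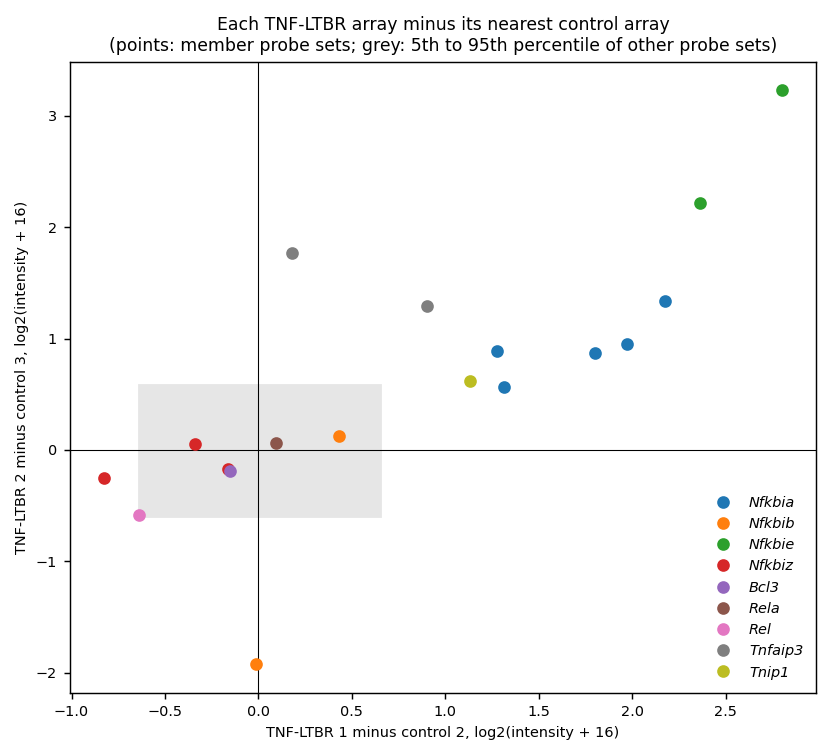
Log2(intensity + 16) of TNF-LTBR 1 minus control 2 (horizontal axis) and of TNF-LTBR 2 minus control 3 (vertical axis), 1 point per member probe set coloured by gene; the grey box spans the 5th to 95th percentile of the other bright probe sets on each axis. Nfkbie, at 2.80 and 3.23 for its brighter probe set, lies outside the box in both directions, as does Nfkbia 1448306_at (2.17 and 1.34), whereas Nfkbia 1420088_at lies inside it on the vertical axis (0.57) and Rela and Bcl3 on both axes.

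A wider list set the members in their pathway: genes from TNF receptor 1 to IkB degradation, regulators of NF-kB and of A20, and the non-canonical genes Nfkb2, Relb and Map3k14. Of 34 listed genes, 31 were measured by a single-symbol probe set, and the brightest was used for each. None passed limma after adjustment (smallest adjusted p 0.9999), and 6 had an unadjusted p under 0.05. The TNF-LTBR arrays were both above the controls for 8 genes, the 3 non-canonical genes included, and both below them for 4, beside the 8.81% and 6.85% of all probe sets given above, and the median difference was 0.03. Leaving out control 3 or TNF-LTBR 1 gave 8 and 7 genes below. Groups of fewer arrays separate more readily, and no share over all probe sets was counted for them. These counts therefore cannot be read against the shares above.

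Transcripts of the IkB kinase complex itself differed little on their brightest probe sets. Ikbkb, the catalytic IkB kinase beta, read 1002.3, 931.6 and 1021.9 in control, against 905.5 and 955.2 in TNF-LTBR, a log2 difference of -0.08 (SE 0.14). Ikbkg, the regulatory subunit NEMO, differed by -0.03, with an SE of 0.27 that leaves its level loosely bounded. The other 4 probe sets of Ikbkb differed by -0.58 to 1.11, and on 2 of them both TNF-LTBR arrays were above the controls. Btrc, which encodes a substrate receptor of the ubiquitin ligase for phosphorylated IkB, read 378.2, 291.1 and 281.8 in control, against 209 and 232.7 in TNF-LTBR, below all controls with a log2 difference of -0.48 (SE 0.23), while its other probe sets differed by -0.42 to 0.58. Nfkbid, a further nuclear IkB gene, was dim and differed by -0.78 (SE 0.39), also with both TNF-LTBR arrays below the controls.

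The genes above all controls by the largest amounts were Nfkb2, Birc3, Birc2, Traf2, Relb and Map3k14. Nfkb2, whose precursor protein is processed in non-canonical signalling, read 417.7, 321.6 and 251.5 in control, against 1154.8 and 1201.9 in TNF-LTBR, 3.52-fold, and its other probe set differed by 0.92. Its partner Relb read 284.2, 181.1 and 240.4 in control, against 335.7 and 400.1 in TNF-LTBR, 1.55-fold. Birc3 and Birc2, ubiquitin ligases recruited to TNF receptors, were 2.99-fold and 2.75-fold higher, but the other Birc3 probe set differed by 0.02. Traf2, the adaptor that recruits them, was 1.76-fold higher and Map3k14, which encodes the NF-kB inducing kinase, 1.44-fold higher. The other 4 genes whose groups did not overlap differed by at most 0.27 in size.

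**Figure D4:**
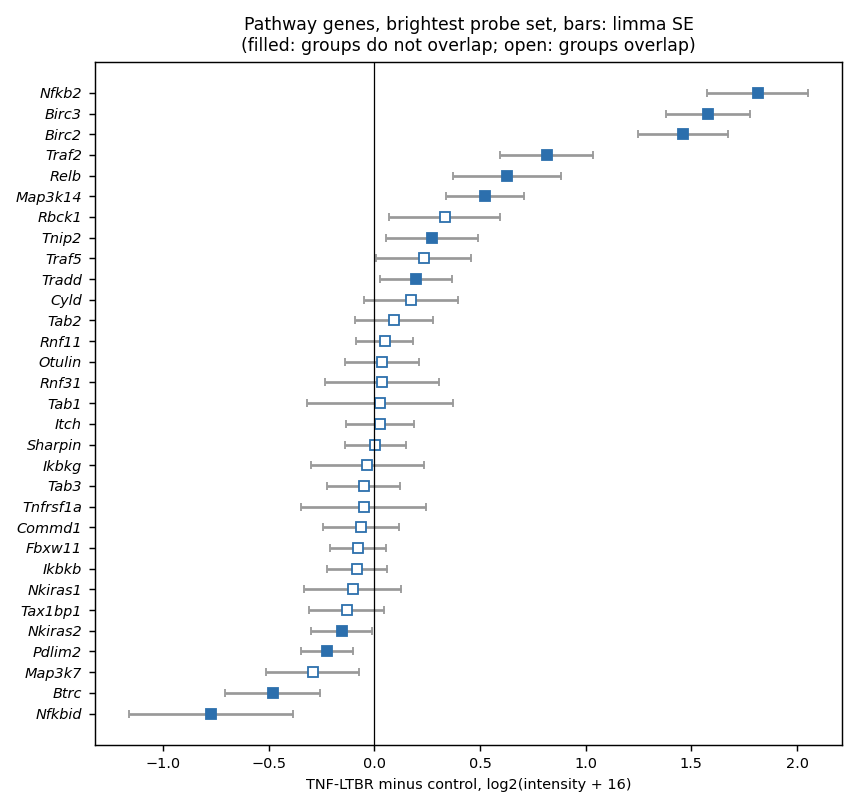
Difference between TNF-LTBR and control means in log2(intensity + 16) for 31 pathway genes, 1 brightest probe set each, ordered by size, with limma's standard error as bars; filled squares mark groups that do not overlap. Nfkb2 (1.81), Birc3 (1.58) and Birc2 (1.46) lie apart from the others, and Ikbkb and Ikbkg lie near 0.

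Array patterns most like that of Nfkbia 1420088_at were sought among 23042 bright probe sets of genes outside the members, by the Euclidean distance of log2 values centred on their mean over the 5 arrays. The nearest were Zfp213 (distance 0.23), Ubox5 (0.23), Zbtb4 (0.26), Herc6 (0.31) and Tlr2 (0.31). Tlr2, a receptor for bacterial lipoproteins, read 370.7, 207.9 and 352.5 in control, against 432.8 and 638.4 in TNF-LTBR. Like Nfkbia, it was lowest on control 2 and highest on TNF-LTBR 2. With 5 arrays, likeness of this kind describes the profile only.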

How the data were processed

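RNA of cultured cells was measured on 5 one-colour arrays, and groups and replicate numbers came from the sample titles. The deposited values are intensities on a linear scale, with 1 column per array. GCOS 1.4 is named in the submitters' processing notes; the probe summary method, scaling target and build are not given in the sources used. Trimmed of 2% at each end, array means were 500.0 to 500.4. Intensities were used as deposited, as log2(intensity + 16), which understates folds of dim genes. After 64 control probe sets were left out, 45037 were tested without a brightness filter, each on its own.

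TNF-LTBR was compared with control by limma 3.58.1 in R 4.3.3 (a linear model per probe set, eBayes with trend), two-sided; Benjamini-Hochberg adjustment covered all probe sets, with a threshold of 0.05; the script was tested on simulated data. With 3 and 2 arrays the smallest exact permutation p is 0.1. No confidence limit follows from depth on arrays, whose number limits the precision. Symbols came from the platform annotation (34945 probe sets with 1 symbol, 932 with several, 9160 with none). Promoter windows came from RefSeq (GRCm38.p6).

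Members and lists were chosen with earlier results of these data known. All member probe sets are named; of the pathway list, up to 8 non-overlapping genes with the largest difference, plus Ikbkb, Ikbkg, Nfkb2 and Relb. Chuk, also due by this rule, and Ripk1 and Tnip3 were not analysed here. Alternatives were pseudocounts of 1 and 64, filters keeping 60% or 40% of probe sets, quantile normalization and median centring. Others were 1 probe set per gene, the brightest, among the 60% brightest genes, and no suffixed probe sets (_x_at, _s_at, _a_at, _f_at). The rest were eBayes without the trend, array weights, a replicate block, and each array left out in turn.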

Additional observations from a re-analysis of the deposited data

How the results depend on the processing

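Over 16 alternatives, no member and no other probe set passed the threshold, and the smallest adjusted p of a member was 0.854. Direction held for 12 of the 18 member probe sets in each alternative that tested them (13 to 16 of 16), including all of Nfkbia, Nfkbie and Tnip1; Nfkbie and Tnip1 have no probe set without a suffix. The count above all controls was 3 with the brightest probe set per gene (8 member probe sets tested). That setting kept the 60% brightest genes and so left out Rel. Without suffixed probe sets (10 tested) the count was also 3. Median differences in these settings were 0.54 and 0.46. Leaving out single arrays gave 8 to 11 members above all controls and medians of 0.59 to 1.08. The pathway counts were then 3 to 8 genes below and 8 to 12 above. Groups of fewer arrays separate more readily. No share over all probe sets was counted for left-out arrays, for 1 probe set per gene or without suffixed probe sets. These counts therefore cannot be read against the 8.81% and 6.85% of the full set of arrays. Bcl3 was at -0.13 with the replicate block, the same value as without control replicate 3, and -0.62 to 0.78 without single arrays. Directions turned without control replicate 2 or TNF-LTBR replicate 2 for Nfkbiz, at 0.19 and 0.49 (1417483_at, range over left-out arrays -0.77 to 0.49) and 0.25 and 0.39 (1448728_a_at, -0.63 to 0.39), and for Rela, at -0.014 and -0.0090 (-0.014 to 0.082). Without TNF-LTBR replicate 2 they turned for Nfkbib 1446718_at, at 0.18 (-1.52 to 0.18), and Tnfaip3 1450829_at, at -0.085 (-0.085 to 2.12). The causes were not tested beyond the fewer probe sets or arrays named.

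Deviations from the group means correlated at 0.12 for the arrays numbered 1 and at -0.69 for those numbered 2. Arrays with a shared number were thus not the most alike. The deviations of 2 TNF-LTBR arrays mirror each other, so these values cannot decide whether the numbers record a pairing. With the replicate number as a block the member median was 1.08 and 0 probe sets passed. No TNF-LTBR array shares the number of control 3, so the block fit gave the same member differences as leaving out control 3.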
